A study of Mus musculus with 16 samples.

Results

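The 9 genes described here are IL-1 family ligands and receptors, chosen by name: the agonist ligands Il1a, Il1b, Il18 and Il36g, the antagonist Il1rn, and the receptor genes Il1r1, Il1r2, Il1rap and Il18rap. They are 9 of the 23337 gene symbols counted by bulk RNA-Seq in 16 libraries of blood neutrophils. All neutrophils came from 8 week old mice of the C57/Bl6 strain and were enriched by negative selection with magnetic beads. Control mice carried the floxed Ltbr allele without Cre (Ltbr fl/fl), and LTβRΔN mice carried the same floxed allele with Mrp8-Cre (Ltbr fl/fl × Mrp8-Cre), a transgene active mainly in neutrophils, so that both genotypes share the floxed allele. Control neutrophils gave 3 libraries labelled unstimulated and 4 labelled stimulated, and LTβRΔN neutrophils gave 4 and 5. The treatment protocol gives a 2 h culture with TNF (100 ng/ml), IL-6 (50 ng/ml) and GM-CSF (100 ng/ml), with or without soluble LIGHT (500 ng/ml), whereas the description of the series names the cytokines themselves as the treatment. No library is labelled for LIGHT, so the groups are named only stimulated and unstimulated, and the comparison asks how each member differed between these labels and between the genotypes. The labels do not say which libraries came from separate animals, so p-values measure the spread between these libraries, which may be technical.

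The IL-1 family signals through receptors that share a cytoplasmic TIR domain. IL-1α and IL-1β bind IL1R1, which pairs with the accessory protein IL1RAP and recruits MyD88, IRAK kinases and TRAF6 to activate NF-kB. IL-1 receptor antagonist (Il1rn) occupies IL1R1 without signalling, and IL1R2 is a decoy receptor that binds IL-1 but lacks the signalling domain. IL-1β and IL-18 are made as inactive precursors that caspase-1 cleaves in inflammasomes, and neutrophils can also cleave them with their serine proteases. IL-18 uses a receptor with its own accessory chain (Il18rap), and IL-36γ (Il36g) signals through another receptor that again pairs with IL1RAP.

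Total counts per library ranged from 1094335 to 11932653. Ltbr, the floxed gene, had 116 ± 33.0 (SD, n = 3) and 109 ± 27.7 (SD, n = 4) CPM (counts relative to the total of the library after TMM scaling) in unstimulated and stimulated control neutrophils and 8.22 ± 3.14 (SD, n = 4) and 8.65 ± 6.75 (SD, n = 5) CPM in LTβRΔN neutrophils. The summed level of 8 neutrophil markers (Ly6g was not analysed here) lay between 46944 and 77743 CPM in all libraries. Monocyte markers summed to 429 to 639 CPM. Only 3 of these 8 passed the filter on low counts, and the others had 0 to 45 counts over all 16 libraries. Among the rarer lineages, 4 of 5 NK cell markers and 3 of 4 B cell markers had 0 counts in all 16 libraries. Some markers of other lineages were detected. Eosinophil markers summed to 37.6 to 114 CPM, T cell markers to 4.30 to 15.4 CPM and erythroid markers to 12.01 to 66.6 CPM. Of these, 2 of 4 eosinophil, 1 of 3 T cell and 2 of 4 erythroid markers had 0 counts in all 16 libraries. A single gene held 37.6 to 109 CPM of the eosinophil sum, and a single gene held 12.01 to 66.2 CPM of the erythroid sum. Control stimulated replicate 3 stood apart with 811 CPM of immature neutrophil markers and 170 CPM of platelet markers, so the results on the members, their ratios and the gene lists in control neutrophils are also given without it. All 9 stimulated libraries carry library index S521 and all 4 unstimulated LTβRΔN libraries carry S520, so index and treatment cannot be told apart in LTβRΔN neutrophils. Of the 3 unstimulated control libraries, replicates 1 and 2 carry S520 and replicate 3 carries S521. A covariate for the index therefore takes its size from these 3 control libraries alone. In LTβRΔN neutrophils its results carry that control difference over.

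Il1b was by far the most abundant member in every group, as the plot of levels per transcript length shows. Levels of different genes were compared as RPKM (CPM divided by the exon length in kilobases, computed here with GENCODE M21 exon lengths). Il1b, which encodes the precursor of IL-1β, had 4188 ± 1348 (SD, n = 3) RPKM in unstimulated and 10942 ± 1592 (SD, n = 4) RPKM in stimulated control neutrophils, which placed it at rank 11 and rank 4 of 20929 symbols with a known length. In LTβRΔN neutrophils its level was 5124 ± 1468 (SD, n = 4) and 10725 ± 1075 (SD, n = 5) RPKM, at rank 9 and rank 5. The neutrophils therefore held abundant Il1b mRNA also in the libraries labelled unstimulated.

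Without stimulation, the decoy receptor gene Il1r2 came second (rank 56 in control, rank 58 in LTβRΔN), followed by Il36g (rank 82 and rank 86) and Il1rn (rank 489 and rank 505). In control neutrophils the lowest library of Il1r2 (650 RPKM) was below the highest of Il36g (691 RPKM), so their ranges overlapped. Within each unstimulated control library, however, Il1r2 was higher than Il36g. In unstimulated LTβRΔN neutrophils every library of Il1r2 was above every library of Il36g. Il1rap (16.5 to 20.6 RPKM in control), Il18rap (6.96 to 11.9 RPKM) and Il18 (2.75 to 6.67 RPKM) followed, and Il1a was lower still (0.498 to 3.43 RPKM), with a range that overlapped that of Il18. With stimulation the order changed. Il36g moved above Il1r2 (rank 31 against rank 91 in control, rank 35 against rank 91 in LTβRΔN), with no overlap between them in either genotype. Il1a moved from rank 5193 to rank 280 in control and from rank 5423 to rank 338 in LTβRΔN neutrophils, and it stood directly below Il1rn and above Il1rap. The ranges of Il1rap and Il18rap overlapped in stimulated neutrophils of both genotypes. Within libraries, Il1rap was higher in every stimulated LTβRΔN library, whereas the order varied among stimulated control libraries.

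**Figure D1:**
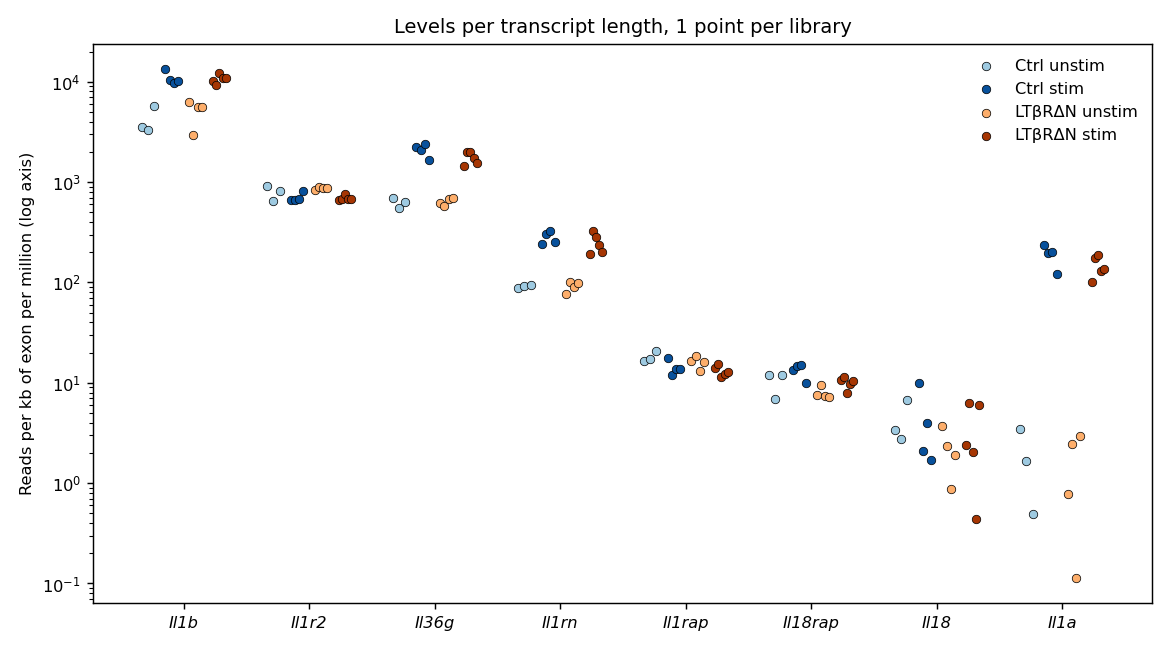
Levels of 8 members in RPKM on a log axis, with 1 point per library and colours for the 4 groups. Il1b lies above every other member in all groups, and Il1a moves from at most 3.43 RPKM in all 7 unstimulated libraries to at least 102 RPKM in all 9 stimulated libraries.

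Of the 9 members, 4 rose with stimulation in both genotypes: the agonists Il1a, Il1b and Il36g and the antagonist Il1rn. None of the 8 members that passed the filter on low counts fell by the test. Over all genes, 3.48% of 9213 tested genes differed between stimulated and unstimulated control neutrophils (2.82% were higher) and 3.73% differed in LTβRΔN neutrophils (2.98% were higher). The median log2 fold change over the 8 tested members was 0.88 in control and 0.86 in LTβRΔN neutrophils, against -0.02 and -0.03 over all tested genes. Fold changes and adjusted p-values come from edgeR's quasi-likelihood test with Benjamini-Hochberg adjustment over all 9213 genes. In bulk RNA, more transcripts per cell and more cells of a type cannot be told apart.

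Il1a, which encodes an alarmin that is active as its precursor, showed the largest fold change of the members. It lies on the minus strand of chromosome 2 (chr2:129299610-129309972 in GRCm38). In control neutrophils its level was 6.77, 3.29 and 0.983 CPM in the 3 unstimulated libraries and 462, 387, 401 and 237 CPM in the 4 stimulated libraries. In LTβRΔN neutrophils it was 1.55, 4.80, 0.226 and 5.87 CPM without and 201, 344, 366, 255 and 268 CPM with stimulation. Every stimulated library stood far above every unstimulated library of its genotype. The log2 fold change was 6.55 (standard error, SE, 0.517; edgeR adjusted p = 3.90e-09) in control and 6.47 (SE 0.478, edgeR adjusted p = 1.13e-09) in LTβRΔN neutrophils, a 93.9-fold and an 88.5-fold difference. With the library index as a covariate the log2 fold change was 8.53 (edgeR adjusted p = 2.84e-06) and 8.83 (edgeR adjusted p = 2.08e-05), and among control libraries of index S521 alone, where the 1 unstimulated library had 7 counts, it was 8.53. In both genotypes the index term rests on that control library. The unstimulated values rest on 1 to 89 counts per library, and the log2 fold change ranged from 6.17 to 7.38 in control and from 6.12 to 7.61 in LTβRΔN neutrophils when single libraries were left out. Gm14023, annotated on the opposite strand over Il1a, rose as well, by 5.23 (SE 0.558, edgeR adjusted p = 4.79e-07) and 6.28 (SE 0.586, edgeR adjusted p = 5.74e-08) on the log2 scale, from 0.983 to 1.45 CPM to 28.0 to 92.6 CPM in control neutrophils. Gm14023 was looked at because of its position, after the values of Il1a were known. The sources used here do not say whether counting used strand, and without strand the reads of such a pair cannot be told apart.

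Il1b lies beside Il1a on the same strand (chr2:129364570-129371139), and it was high before stimulation and higher after it. Unstimulated control libraries had 6677, 6334 and 10948 CPM, and stimulated control libraries had 25323, 20047, 18540 and 19556 CPM. In LTβRΔN neutrophils the values were 12003, 5677, 10626 and 10782 CPM without and 19530, 17821, 23431, 20757 and 20724 CPM with stimulation. The groups did not overlap in either genotype, and the unstimulated libraries varied more among themselves than the stimulated ones in proportion to their mean. Il1b rose by 1.39 (SE 0.205, edgeR adjusted p = 6.41e-05) in control and by 1.07 (SE 0.178, edgeR adjusted p = 2.91e-04) on the log2 scale in LTβRΔN neutrophils, or 2.61-fold and 2.09-fold. With the library index as a covariate the differences were 0.93 (edgeR adjusted p = 0.113) and 0.31 (edgeR adjusted p = 0.9999). The index term rests on 1 unstimulated control library, so the LTβRΔN value carries a control difference over. Among control libraries of index S521 alone, with 1 unstimulated library, the difference was 0.93. Il1bos, annotated opposite Il1b, was not analysed here.

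Il36g, an IL-36 agonist listed in the table under its older symbol Il1f9, is on the plus strand of the same chromosome (chr2:24186476-24193568). Its level was 1139, 905 and 1040 CPM in unstimulated and 3667, 3477, 3979 and 2740 CPM in stimulated control neutrophils. In LTβRΔN neutrophils it was 1031, 958, 1109 and 1148 CPM without and 2378, 3311, 3292, 2887 and 2544 CPM with stimulation. The lowest stimulated library of either genotype was thus above the highest unstimulated one. The log2 fold change was 1.75 (SE 0.146, edgeR adjusted p = 9.45e-09) in control and 1.44 (SE 0.126, edgeR adjusted p = 1.99e-08) in LTβRΔN neutrophils.

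Il1rn, the antagonist gene, is in the same gene cluster as Il36g (chr2:24336853-24351494) and behaved much like it in size. Unstimulated control libraries lay close together at 490, 516 and 517 CPM, and stimulated control libraries had 1348, 1694, 1791 and 1385 CPM. LTβRΔN libraries had 421, 559.5, 499 and 542 CPM without and 1060, 1804, 1563, 1321 and 1109 CPM with stimulation. All stimulated libraries were above all unstimulated ones. Il1rn rose by 1.62 (SE 0.168, edgeR adjusted p = 3.29e-07) in control and by 1.44 (SE 0.147, edgeR adjusted p = 2.24e-07) on the log2 scale in LTβRΔN neutrophils. Reads were counted per gene, so transcripts for secreted and intracellular forms of the antagonist were not separated. For these 4 genes the exact two-sided permutation test gave its smallest possible p, 0.0286 in control and 0.00794 in LTβRΔN neutrophils. A rise with no overlap between groups was seen for 6.58% of tested genes in control and 4.61% in LTβRΔN neutrophils. Without control stimulated replicate 3, the library with more platelet and immature neutrophil transcripts, the log2 fold changes in control neutrophils were 6.52 for Il1a, 1.44 for Il1b, 1.68 for Il36g and 1.54 for Il1rn, and for the members that did not pass they were -0.16 for Il1r2, -0.33 for Il1rap, 0.11 for Il18 and 0.30 for Il18rap.

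**Figure D2:**
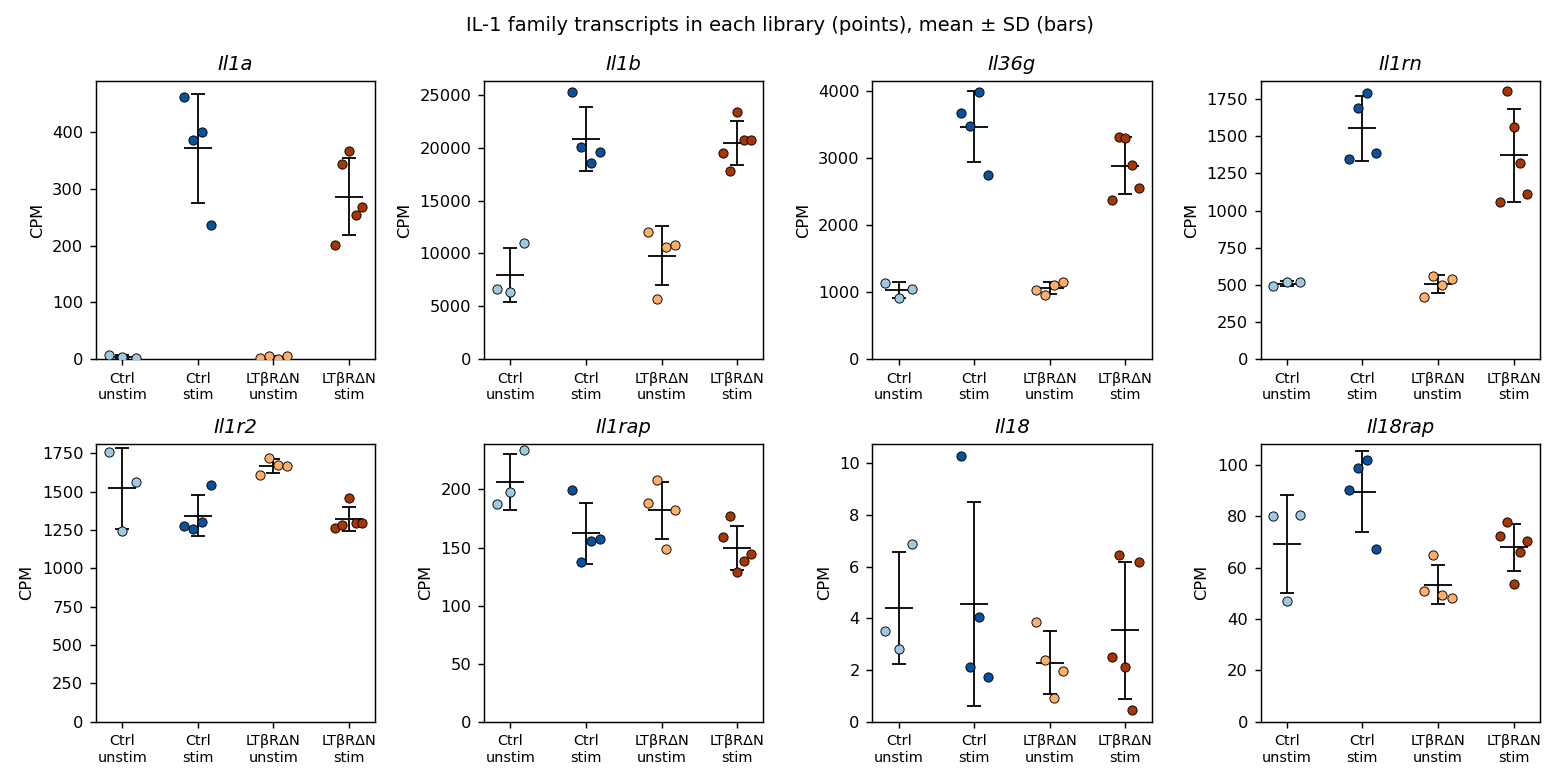
CPM of 8 members in each library (points) with the mean and SD of the group (bars), each panel on its own linear axis from 0. In the panels of Il1a, Il1b, Il36g and Il1rn every stimulated library lies above every unstimulated library of its genotype, whereas the groups of Il1rap, Il18 and Il18rap overlap.

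None of the receptor genes passed the test with stimulation. Il1r2, the decoy receptor gene on chromosome 1 (chr1:40074079-40125231), had 1759, 1240 and 1564 CPM in unstimulated and 1277, 1253, 1302 and 1542 CPM in stimulated control neutrophils, and these ranges overlapped. In LTβRΔN neutrophils it had 1607, 1720, 1672 and 1666 CPM without and 1264, 1283, 1458, 1294 and 1295 CPM with stimulation, so that all stimulated libraries lay below all unstimulated ones. The log2 fold change did not pass the threshold in either genotype, at -0.18 (SE 0.118, edgeR adjusted p = 0.673) in control and -0.34 (SE 0.104, edgeR adjusted p = 0.0795) in LTβRΔN neutrophils. The exact two-sided permutation test of Il1r2 alone gave p = 0.00794 in LTβRΔN neutrophils, not adjusted over the 36 such tests of the members, and 2.67% of all tested genes had every stimulated LTβRΔN library below every unstimulated one. Il1r2 passed the threshold in LTβRΔN neutrophils by DESeq2 (log2 fold change -0.32, adjusted p = 0.0379), and in both genotypes when libraries were scaled by totals only (-0.42, edgeR adjusted p = 0.0331 in control and -0.52, edgeR adjusted p = 0.00198 in LTβRΔN). That scaling moved the median of all tested genes to -0.27 in control and -0.21 in LTβRΔN neutrophils.

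Il1rap, the gene of the shared accessory chain, lies on chromosome 16 (chr16:26581704-26730117). Its level was 188, 198 and 234 CPM in unstimulated and 199, 137, 156 and 157 CPM in stimulated control neutrophils, and 189, 208, 148 and 183 CPM against 159, 177, 129, 139 and 144 CPM in LTβRΔN neutrophils. The groups overlapped in both genotypes. Its log2 fold change was -0.35 (SE 0.161, edgeR adjusted p = 0.407) in control and -0.28 (SE 0.144, edgeR adjusted p = 0.453) in LTβRΔN neutrophils, and it passed the threshold only with scaling by totals in control neutrophils (-0.59, edgeR adjusted p = 0.0363). Il1r1, the gene of the signalling receptor for IL-1 (chr1:40225080-40317257), was barely detected. It had 0 counts in 14 of 16 libraries, 2 counts in control stimulated replicate 3 and 1 count in LTβRΔN unstimulated replicate 4. A count of 0 allows a level of up to 0.228 to 2.40 CPM, depending on the depth of the library (3 counts per library, for counting error only). Il1r1 did not pass the filter on low counts and no fold change is given.

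The IL-18 arm was low and did not pass the test. Il18 (chr9:50554827-50581840) had 4.40 ± 2.17 (SD, n = 3) and 4.55 ± 3.94 (SD, n = 4) CPM in unstimulated and stimulated control neutrophils and 2.28 ± 1.23 (SD, n = 4) and 3.54 ± 2.65 (SD, n = 5) CPM in LTβRΔN neutrophils. These values rest on 1 to 76 counts per library, and its log2 fold change of 0.05 in control neutrophils had a standard error of 0.923, so that sizeable differences were not detectable at this depth. Il18rap, the accessory chain of the IL-18 receptor (chr1:40515362-40551705), was better covered. It had 80.3, 47.0 and 80.4 CPM in unstimulated and 90.3, 98.9, 102 and 67.2 CPM in stimulated control neutrophils. In LTβRΔN neutrophils it had 50.9, 64.8, 49.6 and 48.3 CPM without and 72.3, 77.7, 53.5, 66.0 and 70.5 CPM with stimulation. Stimulated means were higher in both genotypes but the groups overlapped, with a log2 fold change of 0.37 (SE 0.217, edgeR adjusted p = 0.593) in control and 0.37 (SE 0.197, edgeR adjusted p = 0.4662) in LTβRΔN neutrophils.

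Ratios between members within 1 library do not depend on how libraries are scaled, and they are given per length as a description without a test. The mean ratio of the antagonist to Il1b differed little between the groups relative to its spread. Il1rn was found at 2.32 ± 0.616 (SD, n = 3) per 100 Il1b in unstimulated and 2.63 ± 0.641 (SD, n = 4) in stimulated control neutrophils, and 1.99 ± 0.964 (SD, n = 4) and 2.34 ± 0.672 (SD, n = 5) in LTβRΔN neutrophils. The ranges of these ratios overlapped in both genotypes. Il36g overlapped likewise, at 15.8 ± 4.42 (SD, n = 3) and 19.5 ± 3.96 (SD, n = 4) per 100 Il1b in control and 13.5 ± 4.18 (SD, n = 4) and 16.4 ± 3.01 (SD, n = 5) in LTβRΔN neutrophils. Some unstimulated and stimulated libraries share a number in their column names, and what it marks is not stated. Il1rn per 100 Il1b went from 1.21 to 1.87, 3.40 to 3.49, 1.62 to 2.30 and 1.73 to 2.19 between such LTβRΔN libraries. Between such control libraries it went from 2.53 to 1.83, 2.80 to 2.91 and 1.63 to 2.44. Il36g per 100 Il1b was higher in the stimulated library of each such pair except control replicate 1 (19.7 to 16.8). The ratio of the decoy receptor to Il1b did differ. Il1r2 went from 20.1 ± 6.04 (SD, n = 3) to 6.55 ± 1.21 (SD, n = 4) per 100 Il1b in control neutrophils and from 18.7 ± 7.79 (SD, n = 4) to 6.47 ± 0.418 (SD, n = 5) in LTβRΔN neutrophils. Its lowest unstimulated ratio, 14.3 in control and 13.4 in LTβRΔN neutrophils, was above the highest stimulated one, 7.88 and 7.20. Il1a rose far beyond Il1b, from 0.0522 ± 0.0447 (SD, n = 3) to 1.72 ± 0.391 (SD, n = 4) per 100 Il1b in control neutrophils and from 0.0372 ± 0.0368 (SD, n = 4) to 1.36 ± 0.336 (SD, n = 5) in LTβRΔN neutrophils, also without overlap. Among the receptor chains, Il1rap stood at 2.33 ± 0.470 (SD, n = 3) and 2.05 ± 0.403 (SD, n = 4) per 100 Il1r2 in control neutrophils and at 1.83 ± 0.242 (SD, n = 4) and 1.92 ± 0.315 (SD, n = 5) in LTβRΔN neutrophils, with overlapping ranges in both. Without replicate 3, the stimulated control libraries averaged 2.40 (Il1rn), 17.7 (Il36g), 6.39 (Il1r2) and 1.60 (Il1a) per 100 Il1b, and 2.06 for Il1rap per 100 Il1r2.

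**Figure D3:**
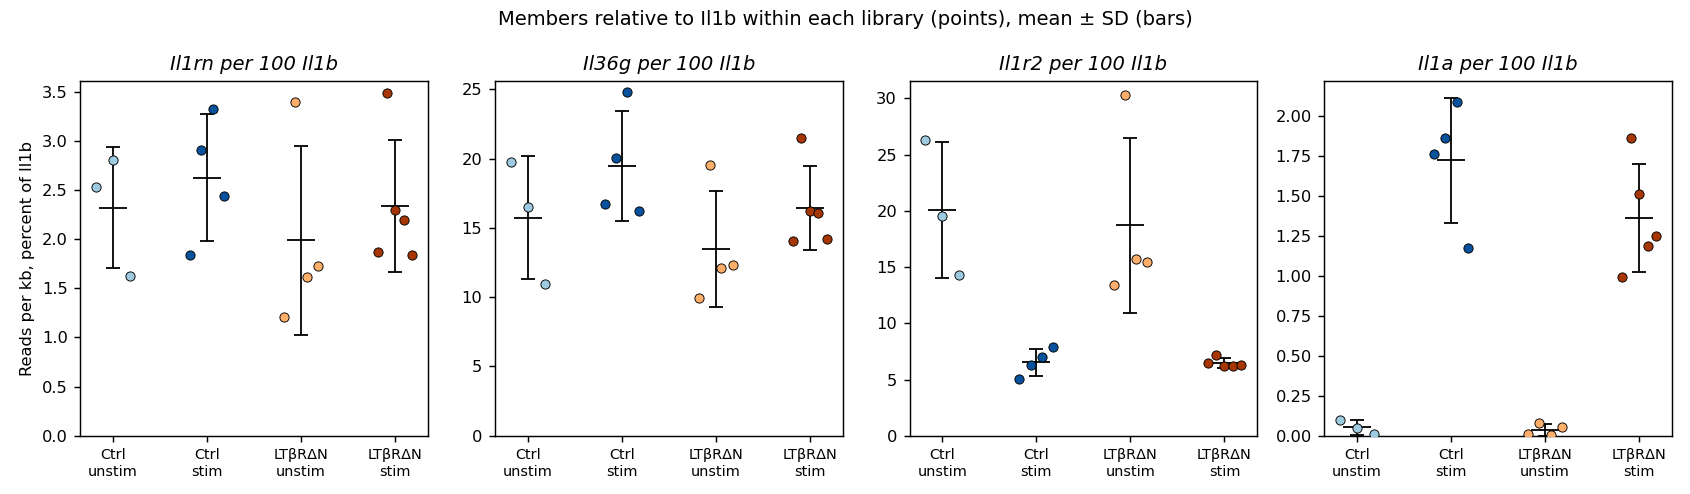
Reads per kilobase of Il1rn, Il36g, Il1r2 and Il1a per 100 of Il1b within each library (points), with the mean and SD of each group (bars) on linear axes from 0. The ratio of Il1r2 falls to at most 7.88 in stimulated libraries and that of Il1a rises to at least 0.995, while those of Il1rn and Il36g overlap between stimulated and unstimulated libraries.

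The promoters of the 4 members that rose, and of Il1r2 which did not, are shown because these genes share a family and, for the first 4, a direction. Each sequence runs from 250 bases before to 50 bases after a RefSeq start site in GRCm38.p6, 5′ to 3′ on the strand of the gene, and capitals mark a matched motif. The Il1r2 window lies inside the annotated gene, which begins at position 40074079 in GENCODE and 40084692 in RefSeq. Sequence before those positions was not searched.
Il1a (chr2:129309923-129310222, minus strand): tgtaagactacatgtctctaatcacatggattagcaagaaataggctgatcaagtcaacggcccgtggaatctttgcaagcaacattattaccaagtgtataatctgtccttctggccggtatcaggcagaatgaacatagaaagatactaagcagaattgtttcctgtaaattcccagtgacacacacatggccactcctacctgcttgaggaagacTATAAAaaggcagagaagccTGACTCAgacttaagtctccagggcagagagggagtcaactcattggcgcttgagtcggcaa
Il1b (chr2:129371090-129371389, minus strand): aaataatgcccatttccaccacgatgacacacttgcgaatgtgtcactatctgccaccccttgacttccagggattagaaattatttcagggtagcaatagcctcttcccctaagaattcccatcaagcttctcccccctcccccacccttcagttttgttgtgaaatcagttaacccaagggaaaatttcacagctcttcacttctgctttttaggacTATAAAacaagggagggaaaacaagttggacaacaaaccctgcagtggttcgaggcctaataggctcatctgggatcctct
Il36g (chr2:24186226-24186525, plus strand): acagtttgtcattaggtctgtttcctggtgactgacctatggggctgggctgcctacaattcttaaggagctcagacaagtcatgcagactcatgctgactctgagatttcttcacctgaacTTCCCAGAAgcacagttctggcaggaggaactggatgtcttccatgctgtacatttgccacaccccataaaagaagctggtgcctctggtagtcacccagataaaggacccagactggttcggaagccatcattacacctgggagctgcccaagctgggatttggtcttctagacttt
Il1rn (chr2:24336610-24336909, plus strand): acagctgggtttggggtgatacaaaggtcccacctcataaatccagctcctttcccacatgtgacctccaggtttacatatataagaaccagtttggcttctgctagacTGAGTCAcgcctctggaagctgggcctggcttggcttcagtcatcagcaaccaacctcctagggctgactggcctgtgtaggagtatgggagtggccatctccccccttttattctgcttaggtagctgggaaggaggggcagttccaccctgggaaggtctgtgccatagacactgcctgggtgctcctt
Il1r2 (chr1:40085843-40086142, plus strand): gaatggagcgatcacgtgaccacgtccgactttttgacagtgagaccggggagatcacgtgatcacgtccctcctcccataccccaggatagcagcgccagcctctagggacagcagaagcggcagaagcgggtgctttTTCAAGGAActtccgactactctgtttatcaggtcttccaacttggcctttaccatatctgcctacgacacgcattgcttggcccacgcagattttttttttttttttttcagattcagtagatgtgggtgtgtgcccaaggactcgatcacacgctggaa

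Motifs were searched by their letters, on both strands except for the TATA box, which was searched on the strand of the gene. Il1a and Il1b, the neighbouring agonist genes, both hold a TATA box (TATAAA), which begins 32 bases before the start site in Il1a and 31 bases before it in Il1b. Il1a also holds an AP-1 motif (TGANTCA, found as TGACTCA), and so does the first of 3 RefSeq windows of Il1rn (TGAGTCA). Il36g and Il1r2 each hold a STAT motif (TTCNNNGAA), found as TTCCCAGAA in Il36g and TTCAAGGAA in Il1r2. Of 32851 mouse promoter windows of the same length, 8.32% hold the TATA box, 7.81% the AP-1 motif and 8.30% the STAT motif. No window printed here holds the NF-kB consensus, present in 8.46% of windows, or the C/EBP motif TTGCNNAA, present in 10.8%. These are matches of letters only, and the motifs do not overlap each other in these windows.

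No member differed between LTβRΔN and control neutrophils by edgeR, with or without stimulation. Over all genes, 0.0217% of tested genes differed between the genotypes among stimulated and also 0.0217% among unstimulated neutrophils. Among stimulated neutrophils, log2 fold changes of LTβRΔN against control lay between -0.39 and -0.03 for the 8 tested members, with a median of -0.22 against -0.01 over all genes. Il36g had the lowest unadjusted p, at a log2 fold change of -0.27 (SE 0.121, unadjusted p = 0.0386 and adjusted p = 0.745 by edgeR's test across all genes; exact two-sided permutation p = 0.119), and its values in the 2 genotypes, given above, overlapped. Il18rap had the largest difference, -0.39 (SE 0.192, edgeR adjusted p = 0.773). Il1b stood at -0.03 (SE 0.173, edgeR adjusted p = 0.994), a sign that turned with upper-quartile scaling. Il1a stood at -0.37 (SE 0.325, edgeR adjusted p = 0.954) and Il1rn at -0.18 (SE 0.141, edgeR adjusted p = 0.949). Stimulated LTβRΔN libraries were shallower, with a median total of 2408608 counts (1506153 to 8575222). Stimulated control libraries had a median of 8255788 counts (4437039 to 11023928). The part of depth in this comparison was not tested. Platelet markers summed to 5.37 to 170 CPM in stimulated control and 0.898 to 11.98 CPM in stimulated LTβRΔN neutrophils, and immature neutrophil markers to 78.5 to 811 CPM and 76.8 to 133 CPM. Their part in these differences was not tested, and without control stimulated replicate 3 the log2 fold change was -0.19 for Il36g, -0.32 for Il18rap, -0.34 for Il1a and -0.11 for Il1rn, with 0 members called. One member, Il36g, had an unadjusted p under 0.05, as did 591 of all tested genes, and DESeq2 called 0 members.

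Among unstimulated neutrophils the members differed by between -0.94 (Il18, standard error 0.935) and 0.29 (Il1b, standard error 0.198) on the log2 scale. None had an unadjusted p under 0.05, against 258 of all tested genes, and 0 members passed by DESeq2. The difference in Il1b was 0.59 (unadjusted p = 0.00763, adjusted p = 1 by edgeR across all genes) with the library index as a covariate, 0.58 in libraries of index S520 alone, where the adjusted p was 0.884, and 0.59 without control unstimulated replicate 3, the S521 library with the highest Il1b of its group. Each of these settings removes the influence of that same library, so their likeness was fixed in advance and they are not separate results. The stimulation response was also compared directly between the genotypes. The interaction term was -0.32 (SE 0.263) for Il1b and -0.31 (SE 0.184) for Il36g, 0 members and 0% of tested genes passed by edgeR, and 0 members and 342 of all genes had an unadjusted p under 0.05. DESeq2 also called 0 members. With the index covariate the interaction of Il1b was -0.62 (unadjusted p = 0.0214, adjusted p = 0.9998 by edgeR across all genes). The index term here rests on control unstimulated replicate 3 as well. The 4 comparisons share their groups pairwise, so their values are not independent of each other.

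**Figure D4:**
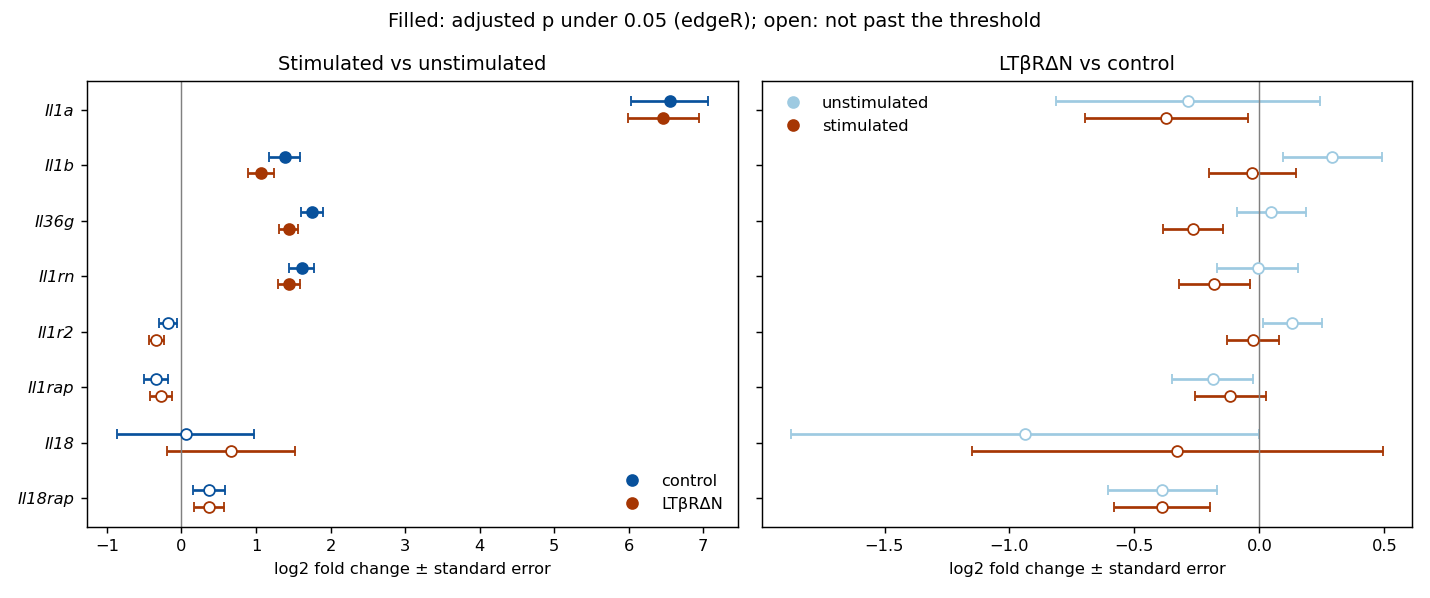
Log2 fold changes with standard errors of the 8 tested members, for stimulated against unstimulated neutrophils of each genotype (left) and for LTβRΔN against control neutrophils of each treatment label (right), on separate axes. Filled points, with an edgeR adjusted p under 0.05, are Il1a, Il1b, Il36g and Il1rn on the left only, and no point on the right is filled.

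Il36g and Il1rn lie in a cluster of ligand genes on chromosome 2, apart from Il1a and Il1b on the same chromosome, and the other family genes of this cluster were nearly silent. Il36b had 61 counts over all 16 libraries, Il36a had 1 count, and Il36rn and Il1f10 were listed at 0 counts, as was Il33 on chromosome 19. None of these 5 ligand genes passed the filter on low counts. Il36g and Il1rn had at least 905 and 421 CPM in every library, and the 3 family genes that lie between them, Il36a, Il36rn and Il1f10, had 1 count in all. Levels within the receptor cluster of chromosome 1 were as unequal. Il1r2 at one end had at least 1240 CPM and Il18rap at the other end at least 47.0 CPM, whereas Il1r1, Il1rl2 and Il1rl1 between them had 3, 0 and 34 counts over all libraries. Il18r1, the ligand-binding chain of the IL-18 receptor, was detected at 0 to 15.4 CPM. Of 7 other receptor and binding protein genes of the family, Il18r1 and Il18bp passed the filter and neither differed in any comparison by edgeR. The decoy-like binding protein gene Il18bp had 19.6 ± 3.64 (SD, n = 3) and 29.1 ± 5.59 (SD, n = 4) CPM in unstimulated and stimulated control neutrophils (log2 fold change 0.57, edgeR adjusted p = 0.617). Sigirr, Il1rapl1 and Il1rapl2 were listed at 0 counts.

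Downstream of the receptors, Map3k8, Traf6 and Myd88 of the adaptor and kinase list rose in both genotypes. Of 22 tested genes, 4 rose and 0 fell with stimulation in control neutrophils, and 3 rose and 0 fell in LTβRΔN neutrophils, where 2.82% and 2.98% of all tested genes rose, with list medians of 0.07 and 0.05 on the log2 scale. Map3k8, the kinase TPL2 that links NF-kB signalling to ERK, rose by 2.40 (SE 0.279, edgeR adjusted p = 1.78e-06) in control and by 1.82 in LTβRΔN neutrophils. Traf6, the ubiquitin ligase downstream of MyD88, rose by 2.31 and 1.45 on the log2 scale. Myd88, the adaptor shared with Toll-like receptors, rose by 0.77 and 0.74. Irak2 rose by 0.85 in control neutrophils (edgeR adjusted p = 0.0362), while its log2 fold change of 0.47 in LTβRΔN neutrophils did not pass (edgeR adjusted p = 0.304), and 0 genes of the list passed the interaction test. Without control stimulated replicate 3, 3 of 21 tested genes rose in control neutrophils and Irak2 was no longer called (0.86, edgeR adjusted p = 0.0601).

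Nlrp3 and Casp4 rose in both genotypes among the inflammasome and processing genes. Of 19 genes 14 were tested, of which 3 rose in control and 2 in LTβRΔN neutrophils, and 0 fell, against the same 2.82% and 2.98% of all tested genes. The 3 calls in control neutrophils also stood without control stimulated replicate 3. Nlrp3, the sensor of the best-known inflammasome, had 536 ± 57.4 (SD, n = 3) CPM without and 1385 ± 273 (SD, n = 4) CPM with stimulation in control neutrophils and 591 ± 39.0 (SD, n = 4) and 1425 ± 282 (SD, n = 5) CPM in LTβRΔN neutrophils. Its log2 fold change was 1.37 (SE 0.166, edgeR adjusted p = 3.57e-06) and 1.27 (SE 0.146, edgeR adjusted p = 1.44e-06). Casp4, the mouse caspase-11 that senses cytosolic lipopolysaccharide, rose by 0.96 and 0.70. Mefv, which encodes pyrin, rose by 0.93 in control neutrophils (edgeR adjusted p = 0.00528) and stood at 0.29 in LTβRΔN neutrophils (edgeR adjusted p = 0.556), a difference between genotypes that did not pass the interaction test. Casp1, which cleaves the precursors of IL-1β and IL-18, stood at -0.04 and 0.11, and Gsdmd, the pore-forming gasdermin, at -0.26 and -0.24, none of them past the threshold. The serine protease genes Elane and Ctsg were listed at 0 counts. Prtn3, another serine protease gene, was detected at 0 to 11.6 CPM. Its log2 fold change was 1.99 (SE 1.27, edgeR adjusted p = 0.656) in control and -1.18 (SE 1.11, edgeR adjusted p = 0.780) in LTβRΔN neutrophils.

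NF-kB response genes, a list that includes known targets of IL-1 and of TNF, mostly rose. Of 21 tested genes, 17 rose in control and 18 in LTβRΔN neutrophils and 0 fell, with medians of 2.38 and 2.24 on the log2 scale, and 17 rose in control neutrophils also without replicate 3. The list was put together with earlier results of these data known, so its count is no independent evidence of direction. Il6, also on this list, had 2 counts over all libraries. Between genotypes, 0 genes of any of these lists passed by edgeR.

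**Figure D5:**
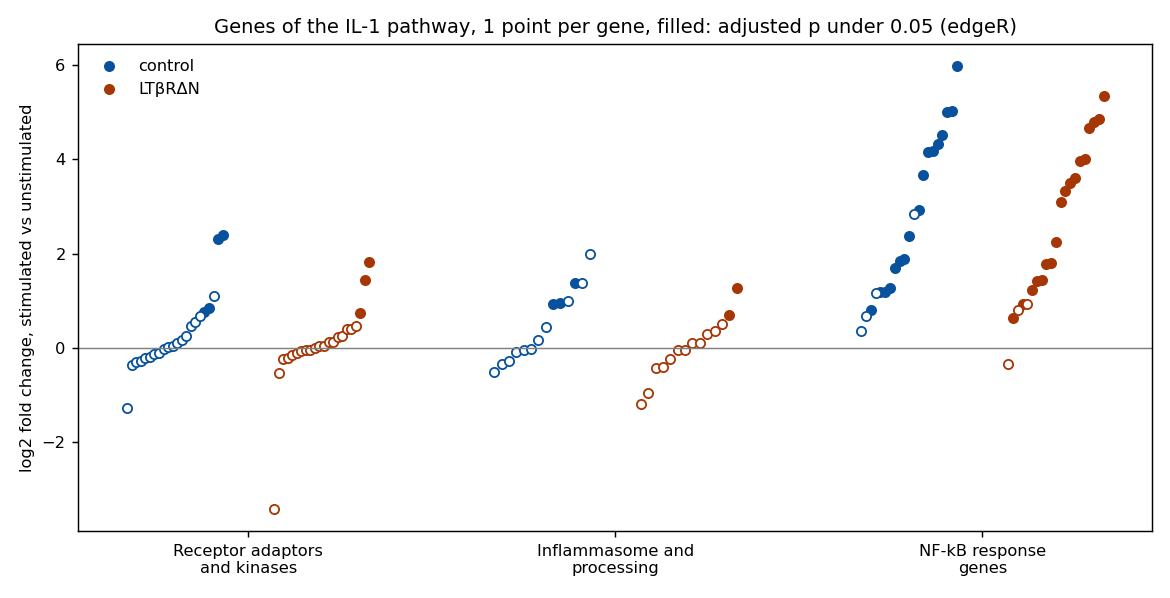
Log2 fold changes of stimulated against unstimulated neutrophils for the tested genes of 3 lists, with 1 point per gene ordered by value, control in blue and LTβRΔN in brown, and filled points for an edgeR adjusted p under 0.05. Most NF-kB response genes lie above 0 and are filled, whereas most adaptor, kinase, inflammasome and processing genes lie near 0 and are open.

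The genes with the most similar pattern were sought among all tested genes, by Pearson's correlation of log2 CPM over the 16 libraries, which share the split into 7 unstimulated and 9 stimulated libraries. These coefficients are a description without a test. For Il1a the closest genes were Egln3 (0.976), Bcl2a1a (0.973), an antiapoptotic BCL2 family gene, and Ctsz (0.973), a lysosomal protease gene. For Il1b they were Zfp36 (0.986), which encodes the mRNA decay factor tristetraprolin, the cytokine gene Osm (0.972) and the chemokine gene Cxcl2 (0.972). For Il1rn they were Ctsz (0.990), Marcksl1 (0.986) and Xbp1 (0.982), a transcription factor gene of the unfolded protein response. Bcl2a1a has near-identical paralogs, so its reads may be split among them. Il1r2 had looser neighbours, Akr1a1 (0.865), Sfpi1 (0.826), which encodes the myeloid factor PU.1, and Nfe2 (0.825). Within the family the closest pair was Il1rn and Il36g (0.978), followed by Il1a and Il36g (0.955) and Il1a and Il1rn (0.953), while Il1a and Il1b reached 0.820.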

How the data were processed

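Bulk RNA-Seq was measured in 16 libraries of blood neutrophils. The authors deposited 1 table of raw counts, the number of reads assigned to each gene, without normalization. The submitters' processing notes name TopHat 1.4.1, Bowtie 1.0.0, HTSeq 0.7.1 and mm10, and the strand setting is not given in the sources used here. Depth ranged from 1094335 to 11932653 counts. Genes were kept by filterByExpr (minimum count 10, minimum total 15), which left 9213 of 23337 symbols. The model was an edgeR 4.0.16 fit in R 4.3.3 (TMM factors, 1 coefficient per group, quasi-likelihood test over all 16 libraries), and Benjamini-Hochberg adjusted p-values under 0.05 were called. Log2 CPM used a prior count of 2, and single members were also compared by exact permutation tests over libraries. Exon lengths and gene positions came from GENCODE M21 (20929 symbols matched, 89.7%) and promoters from RefSeq. The test was checked on simulated data. Library pairs within groups differed by more than sampling noise (chi-square per degree of freedom 6.31 to 47.6 over 25 pairs), so none was removed as a copy of another. Separately prepared libraries of 1 source can also exceed sampling noise, so this check cannot tell whether libraries are technical repeats. Alternatives were other scalings and filters, DESeq2 1.42.0, the library index, a replicate block, the compared groups only, another threshold and each library left out. Named are the 9 members, list genes past the threshold (up to 8 per list), Ltbr, and the 3 most similar genes of Il1a, Il1b, Il1rn and Il1r2. Gm14023, Il6, Casp1, Gsdmd, Elane, Ctsg, Prtn3 and the family genes at low or 0 counts were added after their values were seen. Members and lists were chosen with earlier results of these data known.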

Additional observations from a re-analysis of the deposited data

Results flagged for a closer look

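In 3 of 24 groups of 4 or 5 libraries examined, 1 library stood far from the others of its group relative to the range, where chance gives about 1 in 20 groups. Il1r2 was highest in control stimulated replicate 4 with 1542 CPM, while the other 3 libraries had 1253 to 1302 CPM. Il1r2 was also highest in LTβRΔN stimulated replicate 3 with 1458 CPM, while the other 4 libraries had 1264 to 1295 CPM. Il18rap was highest in LTβRΔN unstimulated replicate 2 with 64.8 CPM, against 48.3 to 50.9 CPM in the other 3 libraries.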

How the results depend on the processing

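The 4 members called in each stimulation comparison stayed 4 with each library left out in turn, and ranged from 3 to 6 in control and from 3 to 5 in LTβRΔN neutrophils over the other alternatives; 0 members were called between genotypes or for the interaction under any alternative. Counts of all genes moved more. With the library index as a covariate, 157 genes were called in control, 79 in LTβRΔN neutrophils and 1 for the interaction, and 153 in control libraries of index S521 alone (chosen after seeing the data), against 321, 344 and 0. Between genotypes among stimulated neutrophils 2 genes were called, but 1 with at least 10 counts in every library and 14 by DESeq2. Among unstimulated neutrophils 2 were called, but 4 with every gene of at least 1 count, 1 with at least 10 counts in every library, 4 by DESeq2, and 2 to 6 with single libraries left out (6 without control unstimulated replicate 1). The interaction gave 0 to 2 genes with single libraries left out. The causes of these changes were not tested.

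The signs that turned belong to values that did not pass the threshold. Il18 in control neutrophils (0.05) became -0.0029 with upper-quartile scaling, -0.17 with totals only, -0.59 with the index covariate, -0.27 with the replicate block and -0.59 in S521 libraries alone, and ranged from -0.72 to 0.52 with single libraries left out; in LTβRΔN neutrophils it became -0.45 with the index covariate. Between genotypes among stimulated neutrophils, upper-quartile scaling gave 0.0012 for Il1b and 0.0009 for Il1r2, and leaving out libraries gave -0.0825 to 0.0775 for Il1b, -0.0653 to 0.0459 for Il1r2 and -0.68 to 0.45 for Il18. Among unstimulated neutrophils, Il1rn became 0.0042 with DESeq2 size factors, 0.0039 by DESeq2, 0.0060 with the index covariate and 0.0017 in S520 libraries alone (chosen after seeing the data), and Il36g became -0.0050 with totals only. Leaving out libraries gave -1.43 to 0.54 for Il1a, -0.0537 to 0.0742 for Il1rn and -0.0364 to 0.13 for Il36g.

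Column names carry a number that the groups of 1 genotype share (3 control and 4 LTβRΔN pairs), and what it marks is not stated. Deviations of libraries with the same number correlated at 0.02 to 0.07, all above 0 but below the 0.1 required here to treat them as pairs, and 6 of 7 unstimulated libraries were closest to their own number. Whether the number marks a shared source is not settled, and no block was used in the values reported. With this number as a replicate block, 4 members in each genotype, 324 genes in control and 343 in LTβRΔN neutrophils were called. The genotype comparisons could not be fitted with the block. Low counts limit Il18 and Il1r1, and Il1a when unstimulated.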
